A study of Mus musculus with 4 samples.

Results

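The genes described here encode the mouse enzymes that write DNA methylation (Dnmt1, Dnmt3a and Dnmt3b), their cofactors (Uhrf1 and Dnmt3l) and the enzymes that oxidise and excise methylated bases (Tet1, Tet2, Tet3 and Tdg). They were taken by symbol, which makes 9 of the 55357 gene identifiers counted, and all 9 were found. Testis cells of 7-day-old C57BL/6 mice were exposed to 200 mJ per square cm of ultraviolet light at 254 nm, which joins RNA to bound protein, and were lysed. The RNA that came down with an antibody to DDX20, an RNA helicase of the SMN complex, was sequenced in 2 libraries (DDX20 RIP), and 10% of the total RNA, with no antibody, in 2 input libraries. The cells carried no transgene or deletion that the labels name, and the labels do not say whether the repeats came from separate mice or cell preparations, so p-values measure a spread between libraries that may be technical. The antibody's catalogue number is not spelled alike for the RIP libraries, with 1 character differing. No precipitation with a control antibody was used here, so the values give over- or under-representation in the precipitate and not binding by DDX20.

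DNA methylation places a methyl group on cytosine, mostly where a guanine follows. DNMT1, guided by UHRF1, copies the mark to the new strand after replication. DNMT3A and DNMT3B set new marks, and in the male germ line before birth DNMT3L, which has no catalytic activity of its own, is required beside DNMT3A. TET enzymes oxidise methylcytosine step by step, and TDG cuts the most oxidised forms out for base excision repair. In the first week after birth the mouse testis holds dividing Sertoli cells and spermatogonia together with Leydig, peritubular, endothelial and blood cells.

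The coding bases around the catalytic residues are shown because they separate the enzymes from DNMT3L, and because they show how close Dnmt3b is to Dnmt3c, the neighbouring rodent copy with which its reads can be confused. They were read 5′ to 3′ on the coding strand from the GENCODE M21 transcripts (GRCm38). Capitals mark the codons of the catalytic proline and cysteine.
Dnmt1: tgtggtgggccaCCCTGCcagggcttcagt
Dnmt3a: attggaggcagtCCCTGCaatgacctctcc
Dnmt3b: attggtggaagcCCATGCaatgatctctct
Dnmt3c: attggtggaagcCCCTGCaatgatctttcc
Dnmt3l: gtgtacggctcgacgcagcccctaggcagc
The Dnmt3l stretch has no capitals, since in an alignment of the translated transcripts these codons of Dnmt3a fall in a gap of Dnmt3l. Over these 30 bases Dnmt3b and Dnmt3c differed at 3 positions, and Dnmt3a and Dnmt3b at 6. The longest run shared by the Dnmt3b and Dnmt3c transcripts was 287 bases, against 18 for Dnmt3a and Dnmt3b. The stretches lie in exon 32 of 39 of Dnmt1 (chr9:20911801-20911830, minus strand), exon 18 of 23 of Dnmt3a (chr12:3902411-3902440, plus strand), exon 19 of 24 of Dnmt3b (chr2:153677201-153677230, plus strand), exon 14 of 19 of Dnmt3c (chr2:153719975-153720004, plus strand) and exon 11 of 14 of Dnmt3l (chr10:78056872-78056901, plus strand).

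In the TET genes the capitals mark the codons of the motif that starts with a histidine and ends with an aspartate and holds the catalytic iron, with 12 bases on either side.
Tet1: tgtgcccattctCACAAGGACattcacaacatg
Tet2: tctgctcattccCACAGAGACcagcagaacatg
Tet3: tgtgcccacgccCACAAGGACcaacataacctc
Tet1 and Tet3 carry the same 9 bases there, and over the 33 bases they differed at 9 positions. The stretches lie in exon 11 of 13 of Tet1 (chr10:62814454-62814486), exon 9 of 11 of Tet2 (chr3:133471358-133471390) and exon 10 of 12 of Tet3 (chr6:83373212-83373244), all on the minus strand. Between any pair of the TET transcripts the longest shared run was 17 bases, so reads of 150 bases can be told apart.

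The input libraries held 21913977 and 21416567 counts and the RIP libraries 38458014 and 37927689. Defining markers of the testis were present, with a summed CPM (counts relative to library size, here over total counts) of 768.2 and 758.2 for 6 Sertoli cell genes and of 280.2 and 273.1 for 6 germ cell genes in the input libraries. Of 4 genes of meiotic and later germ cells, Acrv1 had 0 counts in every library, and Prm1 had 6 counts, all in RIP library 2. The others were present, with 626 and 574 counts of Sycp1 and 241 and 242 counts of Sycp3 in the input libraries. The summed level was lower in both RIP libraries than in both input libraries for all 8 marker lists, of which the germ cell genes stood at 113.1 and 114.5 and the Sertoli cell genes at 437.5 and 455.8. These sums are over total counts, a scaling under which 50.8% of the 17422 genes tested were called lower in RIP and 28.7% higher by the test used below. Between RIP and input they describe representation in the precipitate and not numbers of cells. The input libraries are bulk, so within them the number of cells of a type and the RNA per cell cannot be told apart.

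Levels of single genes and log2 fold changes below were scaled by TMM (the trimmed mean of M values). The messages of the maintenance pair led the set in level and were several-fold higher in the precipitate, whereas the message of Tet1 was lower there. That of the germ line cofactor Dnmt3l was lower as well, but at 6 to 21 counts per library its direction was weakly determined. In all, 7 of the 9 genes were called higher in RIP and 2 lower by edgeR's quasi-likelihood test at a Benjamini-Hochberg adjusted p of 0.05 over 17422 genes tested. Across those genes 77.3% were called, 38.7% higher and 38.6% lower, so a call by itself is common in these data. All 9 genes passed the filter on low counts and in none of them did RIP and input libraries overlap, which held for 88.0% of all genes tested. The median log2 fold change was 0.96 over the 9 genes and -0.05 over all genes tested, whose lower and upper quartiles were -0.98 and 0.73. In a test against a 1.5-fold change 6 were higher and 1 lower, where 49.6% of all genes were called. With an assumed coefficient of variation of 0.2, larger than these libraries showed, 6 were higher and 2 lower, where 56.3% were called. Together the 9 genes took 0.0638% and 0.0640% of the input counts and 0.159% and 0.154% of the RIP counts.

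**Figure D1:**
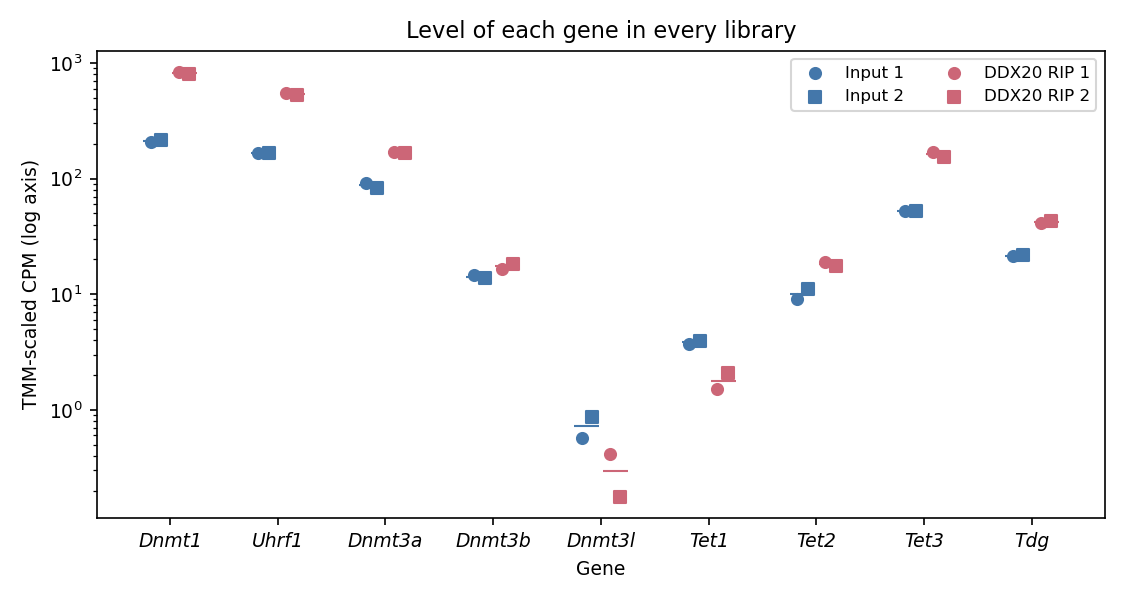
Level of the 9 genes in each library, in TMM-scaled CPM on a log axis. Circles are replicate 1, squares replicate 2, and short lines the mean of each group. Dnmt1 stands at 205.4 and 213.6 in input and at 836.3 and 798.9 in RIP, while Tet1 falls from 3.69 and 3.97 to 1.51 and 2.07.

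Dnmt1, the maintenance methyltransferase (ENSMUSG00000004099.17, chromosome 9 from 20907209 to 20959888, minus strand), stood at 205.4 and 213.6 CPM in input and at 836.3 and 798.9 CPM in RIP. Both RIP values were far above both input values. The fitted log2 fold change was 1.96 ± 0.029 (SE, 2 libraries against 2), a 3.90-fold difference (edgeR quasi-likelihood test, adjusted p = 3.48e-34). This was above 98.3% of all genes tested. Over the 4 libraries the genes closest to Dnmt1 in log2(CPM + 1) were Anln, which encodes the cytokinetic scaffold anillin (log2 fold change 1.87), Myo1d, a myosin motor gene (1.94), and Aars, the alanyl-tRNA synthetase gene (1.80), at distances of 0.12, 0.16 and 0.18 log2 units.

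Uhrf1, which encodes the protein that reads hemimethylated DNA and recruits DNMT1 (chromosome 17 from 56303321 to 56323486, plus strand), followed the same course. It measured 167.8 and 166.8 CPM in input and 548.4 and 524.9 CPM in RIP. The RIP libraries were again well apart from the input. The log2 fold change was 1.68 ± 0.030 (SE, n = 2 per group; edgeR quasi-likelihood test, adjusted p = 5.65e-32). Of the windows of 150 bases in its transcript, 1.92% also occur in the processed pseudogene Gm5648, which had 4 to 24 counts per library against 4028 to 18552 for Uhrf1. Uhrf2, a related gene whose product does not replace UHRF1 in maintenance, was higher by 0.96 ± 0.049 (SE). The ratio of Uhrf1 to Uhrf2 counts, which does not depend on how libraries are scaled, was 2.99 and 3.20 in input and 5.06 and 5.13 in RIP.

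Among the enzymes that set new marks, Dnmt3a differed more between RIP and input than Dnmt3b. Dnmt3a (chromosome 12 from 3806007 to 3914443, plus strand) stood at 91.5 and 83.2 CPM in input and 171.4 and 167.6 CPM in RIP. The groups did not overlap, and the log2 fold change was 0.96 ± 0.042 (SE, n = 2 per group; edgeR quasi-likelihood test, adjusted p = 9.84e-21). The gene makes a long form and a shorter germ cell form from separate promoters, which counts per gene do not separate. Its exons overlap those of the antisense gene Dnmt3aos over 133 bases, but that gene had at most 2 counts in a library.

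Dnmt3b (chromosome 2 from 153649450 to 153687730, plus strand) was lower in level, at 14.6 and 13.8 CPM in input and 16.6 and 18.2 CPM in RIP. The RIP values lay just above the input values. The difference of 0.29 ± 0.099 on the log2 scale (SE, n = 2 per group) was called (edgeR quasi-likelihood test, adjusted p = 0.00839) with TMM scaling, but stood at -0.054 on total counts and at -0.048 under upper-quartile scaling, and was called with neither. It also lost its call without input replicate 2 (0.26) or without RIP replicate 2 (0.27). Across the 17 alternatives Dnmt3b kept direction and call in 8, lost the call in 5 and changed sign in 4. The ratio of Dnmt3a to Dnmt3b counts was 6.27 and 6.04 in input and 10.3 and 9.22 in RIP.

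Dnmt3c, a copy of Dnmt3b that methylates young retrotransposons in the male germ line, lies downstream of it (chromosome 2 from 153696652 to 153729907). Dnmt3c was lower in the precipitate, with 100 and 84 counts in input and 40 and 32 in RIP, although the RIP libraries were deeper. Its log2 fold change was -1.82 ± 0.265 (SE, n = 2 per group; edgeR quasi-likelihood test, adjusted p = 1.91e-07). The ratio of Dnmt3b to Dnmt3c counts was 3.60 and 3.96 in input and 14.1 and 19.2 in RIP. Of the windows of 150 bases in the Dnmt3b transcript 3.31% also occur in Dnmt3c, so some reads of the copies cannot be assigned.

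Dnmt3l (chromosome 10 from 78041947 to 78063622, plus strand) was close to the limit of detection at this age. It had 14 and 21 counts in input and 14 and 6 counts in RIP, or 0.567 and 0.869 CPM and 0.414 and 0.177 CPM. The 95% exact Poisson interval of the count, which covers counting error only, ran from 7.65 to 23.5 in input 1 and from 2.20 to 13.1 in RIP 2. Taken as read pairs, since both mates appear to be counted, these were 7 pairs (2.81 to 14.4) and 3 pairs (0.619 to 8.77). The log2 fold change was -1.27 ± 0.560 (SE, n = 2 per group; edgeR quasi-likelihood test, adjusted p = 0.0399), and the adjusted p was 0.178 with DESeq2. Nor was it called when input replicate 1 (-1.52), input replicate 2 (-0.93) or RIP replicate 2 (-0.75) was left out. Its exons overlap those of Aire by 67 bases, and Aire had 2 to 8 counts per library. The direction of Dnmt3l is weakly determined at this depth.

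The TET genes did not share a direction. Their coding regions are similar in length (5412 to 6120 bases). The whole transcripts are not, at 5944 bases for Tet3, 9179 for Tet2 and 14369 for Tet1. The part of transcript length in their values was not tested. Tet3 (chromosome 6 from 83362373 to 83459084, minus strand) was the most abundant, at 52.4 and 52.6 CPM in input and 169.3 and 154.6 CPM in RIP. Its RIP libraries lay about as far above the input as those of Uhrf1, differing by 1.63 ± 0.046 on the log2 scale (SE, n = 2 per group; edgeR quasi-likelihood test, adjusted p = 4.16e-26).

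Tet2 (chromosome 3 from 133463679 to 133545139, minus strand) measured 9.08 and 11.1 CPM in input and 18.8 and 17.5 CPM in RIP. The groups were apart, differing by 0.85 ± 0.110 on the log2 scale (SE, n = 2 per group; edgeR quasi-likelihood test, adjusted p = 2.12e-08). An antisense gene, Gm42567, overlaps its exons by 43 bases and had 0 to 6 counts per library.

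Tet1, the gene of the TET enzyme best known from embryonic stem cells and primordial germ cells (chromosome 10 from 62804570 to 62908996, minus strand), was lower in RIP in both libraries. It had 91 and 96 counts in input and 51 and 70 counts in RIP, or 3.69 and 3.97 CPM and 1.51 and 2.07 CPM. The highest RIP value was below the lowest input value, and the log2 fold change was -1.10 ± 0.237 (SE, n = 2 per group; edgeR quasi-likelihood test, adjusted p = 0.000104). Tet1 was called lower under all 17 alternatives, with log2 fold changes from -2.57 to -0.85. Beside this, the summed level of the 6 germ cell markers over total counts was also lower in RIP. In the test with TMM scaling, a different scaling, 3 of them were called lower and 2 higher. The part of cell type in the value of Tet1 was not tested.

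Counts within a library show the same order among the TET genes. For every count of Tet1 there were 14.2 and 13.2 of Tet3 in input, against 112.3 and 74.7 in RIP. Tet3 to Tet2 changed less, from 5.77 and 4.74 to 9.003 and 8.84, and Tet2 to Tet1 went from 2.46 and 2.79 to 12.5 and 8.46. In each of these ratios both RIP libraries lay above both input libraries.

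Tdg, the glycosylase gene (chromosome 10 from 82629828 to 82650799, plus strand), measured 21.4 and 21.8 CPM in input and 41.4 and 43.2 CPM in RIP. The groups were well apart, differing by 0.97 ± 0.073 on the log2 scale (SE, n = 2 per group; edgeR quasi-likelihood test, adjusted p = 4.55e-14). The value of Tdg is uncertain, because 33.1% of the windows of 150 bases in its transcript occur in other genes, chiefly processed pseudogenes. One of these, Gm9855, had about as many counts as Tdg, with 495 and 492 in input and 1665 and 1586 in RIP, and a log2 fold change of 1.25 ± 0.072 (SE). Tdg and Gm9855 together stood at 41.8 ± 0.512 CPM in input and 90.3 ± 0.392 CPM in RIP (mean ± SD, n = 2), a ratio of 2.16. The exons of Tdg also overlap those of Glt8d2 by 367 bases on the other strand, and the library kit does not mark strand. Glt8d2 had 78 and 75 counts in input and 36 and 38 in RIP.

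To compare levels between genes, input CPM was divided by the length of all exons of a gene in kb. Uhrf1 was highest at 39.3 ± 0.172 CPM per kb (mean ± SD, n = 2), followed by Dnmt1 at 28.4 ± 0.787. Dnmt3a (5.25 ± 0.351), Tdg (4.02 ± 0.0549), Tet3 (3.14 ± 0.00899) and Dnmt3b (2.78 ± 0.111) formed a middle range. Tet2 (0.598 ± 0.0845), Tet1 (0.248 ± 0.0131) and Dnmt3l (0.240 ± 0.0715) were lowest. The difference between Tet1 and Dnmt3l was smaller than the SD of either, whereas the other neighbours in this order did not overlap between libraries. Divided by coding length instead, the order was the same, from 71.2 ± 0.312 CPM per coding kb for Uhrf1 to 0.567 ± 0.169 for Dnmt3l, but Dnmt3a, with a long 3′ untranslated region, moved to 32.0 ± 2.14. In RIP the order by exon length differed in that Tet3 (9.70 ± 0.619 CPM per kb) stood above Tdg (7.87 ± 0.234) and below Dnmt3a (10.2 ± 0.160) by less than its own SD.

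The difference between RIP and input went with the input level within the set. Over the 9 genes Spearman's rho between input CPM and log2 fold change was 0.933, and over all 17422 genes tested it was 0.271. Input CPM enters both quantities and the genes share the same 4 libraries, so these are descriptions. Dnmt1 made up 36.3% and 37.6% of the summed counts of the 9 genes in input and 46.4% and 46.3% in RIP. The share of Dnmt3a went from 16.2% and 14.7% to 9.50% and 9.71%, and that of Tet1 from 0.651% and 0.700% to 0.0836% and 0.120%. Uhrf1 held 29.4% to 30.4% in every library.

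Genes with long coding regions tended to be higher in RIP, so the fold changes were also set against a smooth trend of log2 fold change on coding length over 14677 protein-coding genes (Spearman's rho 0.637). Within the 9 genes rho was -0.0084. After an offset for that trend 4 of the 9 genes were called higher and 4 lower, where 39.3% and 34.0% of all protein-coding genes were. The median log2 fold change was then 0.088 over the 9 genes and 0.020 over all protein-coding genes. Uhrf1, with 2349 coding bases, was still higher by 0.97 ± 0.030 (SE), as were Tdg (0.91 ± 0.074), Dnmt1 (0.63 ± 0.028) and Tet3 (0.22 ± 0.046). Dnmt3a, at 0.088 ± 0.042, was not called (edgeR quasi-likelihood test, adjusted p = 0.0510). Tet2 (-0.59 ± 0.113), Dnmt3b (-0.51 ± 0.102), Dnmt3l (-1.32 ± 0.558) and Tet1 (-2.57 ± 0.246) were called lower. The sign of Tet2 and Dnmt3b thus depends on this offset.

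**Figure D2:**
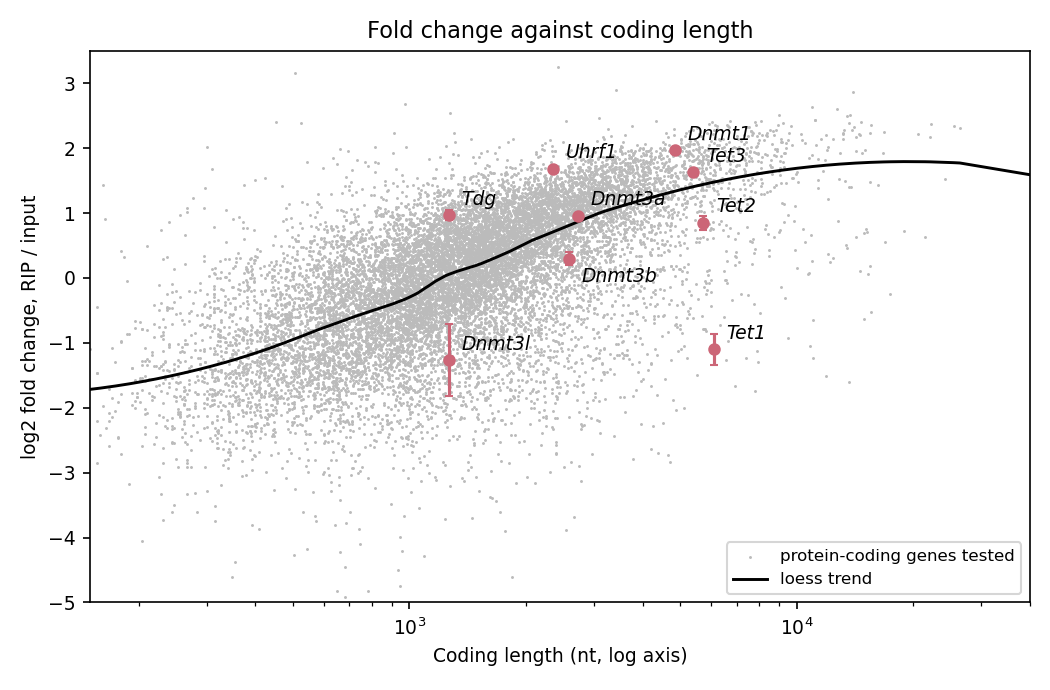
Log2 fold change (RIP over input) against coding length on a log axis for protein-coding genes tested (grey), with the loess trend (line) and the 9 genes (red, bars are SE). Of 14677 genes, 33 lie beyond the axes. Uhrf1, Tdg and Dnmt1 lie above the line, Dnmt3a on it, and Tet1 lies 2.57 log2 units below it.

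Scaling between libraries moved all values together. With total counts alone all genes had a median of -0.40 and 79.4% of them were called, 28.7% higher and 50.8% lower. The log2 fold changes of Dnmt1 (1.62), Uhrf1 (1.33), Tet3 (1.28), Tdg (0.62), Dnmt3a (0.61) and Tet2 (0.50) stayed above 0 and were called. Tet1 (-1.44) and Dnmt3l (-1.61) were called lower, and Dnmt3b was not called.

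**Figure D3:**
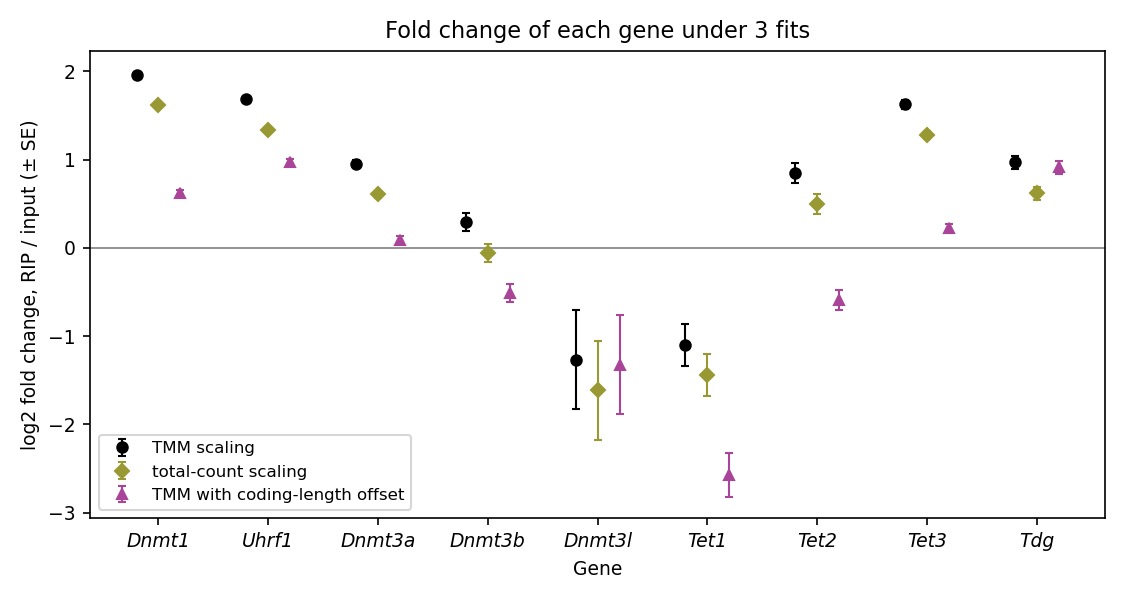
Log2 fold change of each gene, RIP over input, with SE bars, with TMM scaling (circles), total-count scaling (diamonds) and TMM scaling with an offset for coding length (triangles). Dnmt1, Uhrf1, Tet3 and Tdg are above 0 and Tet1 and Dnmt3l below 0 in all 3 fits, while Dnmt3b and Tet2 are on both sides of 0.

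Genes that work with these enzymes were followed in 5 lists of 57 genes, all of which were tested. Of these, 35 were called higher in RIP and 12 lower, with a median log2 fold change of 0.45, against 38.7% and 38.6% of all genes tested. With total counts the numbers were 29 and 23, where 28.7% of all genes were higher and 50.8% lower. After the offset for coding length they were 27 and 22 (median 0.012), where 39.3% and 34.0% of all protein-coding genes were.

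In a list of 8 genes for readers of methylated DNA and related proteins, 5 were higher and 2 lower (median 0.73). Of all genes tested 38.7% were higher and 38.6% lower. Uhrf2 was higher by 0.96 ± 0.049 (SE, n = 2 per group, here and below). Mbd3, a subunit of the NuRD complex, was lower by a log2 fold change of -0.18 ± 0.032, and Mbd2, another NuRD subunit, by -0.39 ± 0.070. Mbd3 was 0.27 after the offset for coding length and 0.44 after one for exon length. Of the 8 genes 4 were called higher and 4 lower after the coding length offset (median 0.014), beside 39.3% and 34.0% of protein-coding genes.

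Base excision repair completes demethylation after TDG. Of its 13 genes 6 were higher and 3 lower (median 0.12), beside 38.7% and 38.6% of all genes. DNA ligase 1, Lig1, went from 150.02 ± 1.70 to 370.7 ± 2.30 CPM (mean ± SD, log2 fold change 1.31 ± 0.031) and the strand break sensor Parp1 from 164.1 ± 3.62 to 348.2 ± 11.8 CPM (1.09 ± 0.032). Apex1, the endonuclease that cuts the site left by TDG, was lower (-1.04 ± 0.061), as was the repair polymerase gene Polb (-1.15 ± 0.066). With total counts 5 of the 13 genes were higher and 7 lower, beside 28.7% and 50.8% of all genes. After the offset for coding length 7 were higher and 3 lower (median 0.10), beside 39.3% and 34.0% of protein-coding genes.

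Of 11 genes that supply the methyl donor, 8 were higher and 2 lower (median 0.43), beside 38.7% and 38.6% of all genes. Mat2a, the synthetase of S-adenosylmethionine, was higher by 0.43 ± 0.034 and Shmt2, a mitochondrial enzyme of folate metabolism, by 0.57 ± 0.038. Ahcy, which clears the product of methyl transfer, was lower by a log2 fold change of only -0.13 ± 0.044, and the call did not hold when input replicate 1 (-0.12), input replicate 2 (-0.12) or RIP replicate 2 (-0.039) was left out. Gnmt, a glycine methyltransferase gene, was rare, at 3.09 ± 0.620 CPM in input and 0.887 ± 0.251 CPM in RIP (-1.80 ± 0.303). After the offset for coding length 7 of the 11 were called higher and 2 lower (median 0.23), beside 39.3% and 34.0% of protein-coding genes.

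Among 18 partners and targeting factors 12 were higher and 4 lower (median 1.08), beside 38.7% and 38.6% of all genes. Dnmt3c was among those called lower. Trim28, the corepressor that zinc finger proteins bring to imprinted and retrotransposon DNA, went from 310.2 ± 4.71 to 680.0 ± 0.987 CPM (1.13 ± 0.026). Ehmt2, a histone H3 lysine methyltransferase gene, was higher by 1.09 ± 0.027 but stood at -0.072 after the offset for coding length. The replication clamp Pcna was lower by a log2 fold change of -0.15 ± 0.031 and stood at 0.37 after that offset. The deacetylase gene Hdac1 was lower as well (-0.34 ± 0.048). After the offset for coding length 9 of the 18 were called higher and 7 lower (median 0.14), beside 39.3% and 34.0% of protein-coding genes.

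Small RNAs direct methylation to transposons in male germ cells before birth. Of 7 genes of that pathway 4 were higher and 1 lower (median 0.21), beside 38.7% and 38.6% of all genes. With total counts 2 were higher and 2 lower (28.7% and 50.8% of all genes). Tex15, a nuclear factor of this pathway, was higher by 0.81 ± 0.074. Piwil2, a PIWI protein of germ cells, was higher by 0.18 ± 0.075, which was not called when input replicate 1 (0.27), input replicate 2 (0.12) or RIP replicate 2 (0.14) was left out. Mael, a piRNA pathway gene, went from 148.3 ± 6.58 to 41.4 ± 0.838 CPM (-1.84 ± 0.046). After the offset for coding length 0 of the 7 were called higher and 6 lower, where 39.3% and 34.0% of all protein-coding genes were. The summed level of the germ cell markers over total counts was lower in RIP. With TMM scaling 2 of the 6 markers were called higher and 3 lower. The part of cell type in the values of this list was not tested.

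**Figure D4:**
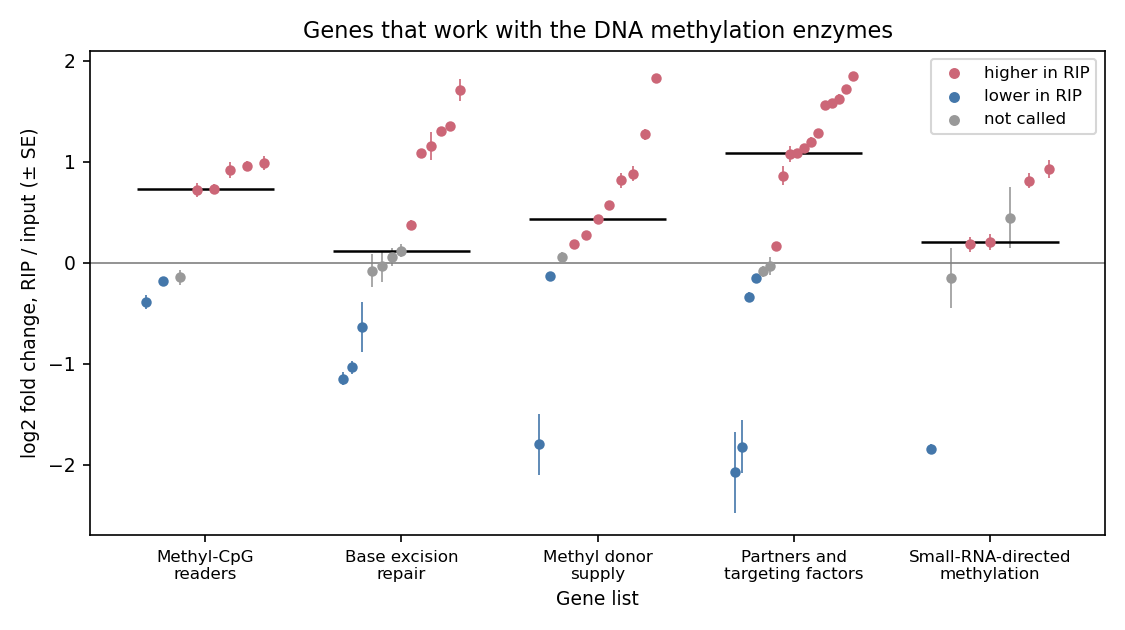
Log2 fold change (RIP over input, bars are SE) of the 57 genes in 5 lists, coloured by whether they were called higher, lower or not called, with the median of each list as a line. The medians run from 0.12 for base excision repair to 1.08 for partners and targeting factors, and every list holds genes on both sides of 0.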

How the data were processed

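RNA of 2 input and 2 DDX20 RIP libraries of mouse testis cells was compared, grouped by sample title. The authors deposited raw read counts per gene; the submitters' processing notes name featureCounts, SAMtools, STAR 2.7.2b, cutadapt 4.1 and Trimmomatic 0.36 with the GRCm38 build. How reads that map to several places were handled, and which annotation release was counted, is not given in the sources used here. Most nonzero counts were even (65.4% to 67.4% per library), a pattern that counting the mates of a pair separately produces and that overstates depth.

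Symbols, lengths and coordinates came from GENCODE M21 (GRCm38), which names 52081 (94.1%) identifiers. The version numbers of the 9 members differ from those in M21. Coding length was taken from the best-ranked APPRIS transcript. Counts were filtered with filterByExpr, scaled by TMM and tested with edgeR 4.0.16 (robust quasi-likelihood, R 4.3.3), with Benjamini-Hochberg adjustment over 17422 genes and a threshold of 0.05. SE is the absolute log2 fold change over the square root of F. In data simulated for RIP versus input, 50 genes were changed at each fold size and 17094 genes were tested. Of genes changed 1.5-, 2-, 4- and 8-fold, 62%, 78%, 92% and 92% were recovered, with 7 unchanged genes called. In the real libraries 77.3% of genes tested were called, so the simulation cannot show the error rate where most genes differ. Replicates differed by 1.18 (input) and 1.15 (RIP) times counting noise in a chi-square statistic of halved counts and were kept as separate samples.

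Alternatives were other scalings and filters, DESeq2 1.42.0, limma-voom (limma 3.58.1), a replicate block, a test against a 1.5-fold change, omission of each library in turn, loess offsets (span 0.3) for exon and coding length, halved counts and, added after seeing the data, an assumed coefficient of variation of 0.2. Members and lists were chosen with earlier results of these data known. Named beside the members are the 2 called genes with the highest mean CPM per direction of each list, genes that overlap a member or share sequence with it, and the 3 genes nearest to Dnmt1; 1 gene that this rule names is not reported here.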

Additional observations from a re-analysis of the deposited data

How the results depend on the processing

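Dnmt1, Uhrf1, Tet1, Tet3 and Tdg kept direction and call under all 17 alternatives, with log2 fold changes of 0.63 to 2.04, 0.97 to 1.75, -2.57 to -0.85, 0.22 to 1.73 and 0.62 to 1.04. Dnmt3a stood at -0.079 after the exon length offset, Tet2 at -0.19 and -0.59 after the exon and coding length offsets, and Dnmt3b at -0.048 (upper quartile), -0.054 (total counts), -0.016 (exon length) and -0.51 (coding length). Members called higher numbered 4 instead of 7 after either length offset. Members called lower numbered 4 instead of 2 after the coding length offset, and 1 without a low-count filter, with at least 1 CPM in all 4 libraries, with the exon length offset, halved counts, DESeq2 or the test against a 1.5-fold change. Leaving out 1 library gave 6 to 7 higher and 1 to 2 lower. Over all genes, 4210 were higher and 4426 lower in the test against a 1.5-fold change. Pathway genes called lower numbered 23 with upper-quartile or total-count scaling, 22 after the coding length offset, 6 in the test against a 1.5-fold change and 6 with an assumed coefficient of variation of 0.2, against 12. Among pathway genes named in the text, the sign turned after the exon length offset for Mbd3 (0.44), Ahcy (0.13), Pcna (0.26) and Piwil2 (-0.16), and after the coding length offset for Mbd3 (0.27), Ehmt2 (-0.072), Pcna (0.37), Piwil2 (-0.76) and Tex15 (-0.81). Over all 57 pathway genes the coding length offset turned the sign of 12 of the 47 called. Piwil2 also stood at -0.16 (upper quartile), -0.17 (total counts) and -0.039 (at least 1 CPM in all libraries). The cause of these changes was not tested. With the replicate block 7 members were higher and 2 lower. The deviations of replicate 1 in input and in RIP had a correlation of 0.010 over 14430 genes. Replicates differed by only 1.18 and 1.15 times counting noise, so this value cannot tell whether a replicate number marks a shared preparation. Dnmt3l, at 6 to 21 counts, is limited by depth, and it was not tested with halved counts or with at least 1 CPM in all libraries.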

Other observations

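Further genes of the pathway lists were chosen after their values were seen, for the size of their log2 fold change. Setd2, whose product methylates histone H3 along transcribed genes, stood at 1.85 ± 0.034 (SE, n = 2 per group), Mthfd1, a folate cycle enzyme gene, at 1.83 ± 0.040, and Usp7, the deubiquitinase that binds UHRF1 and DNMT1, at 1.72 ± 0.034. Neil3, a glycosylase gene of dividing cells, went from 6.63 to 21.7 CPM (1.71 ± 0.111). All 4 were also higher after the offset for coding length, at 0.26, 0.93, 0.66 and 1.30. At the other end Dppa3, a germ cell factor that restrains UHRF1, stood at -2.07 ± 0.402, from 2.00 CPM in input and 0.473 CPM in RIP. It had only 56 and 42 counts in input and 22 and 10 in RIP, and stood at -1.03 after the offset for coding length.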
